A study of Caenorhabditis elegans with 48 samples.

Results

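The yolk genes of *C. elegans* form a group of 10 of the 19885 genes in the deposited tables. They are the 6 vitellogenin genes *vit-1* to *vit-6*, the yolk receptor gene *rme-2*, and 3 genes for transcription factors known to act on yolk genes, *ceh-60*, *unc-62* and *pqm-1*. The members were taken by name, though with earlier results of these data known, and all 10 passed the filter on low values.

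Vitellogenins are the precursors of yolk proteins, large lipoproteins that carry lipid from mother to egg. In *C. elegans* they are made in the adult intestine, secreted into the body cavity and taken up by growing oocytes. RME-2, a receptor of the low-density lipoprotein receptor family on the oocyte surface, binds yolk and brings it into the cell. CEH-60, a PBX-type homeodomain protein, and UNC-62, its Meis-type partner, activate vitellogenin genes in the intestine. PQM-1 is a zinc finger factor that has been reported to act at yolk genes.

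RNA was taken from whole adults of the strain JDW259, which carries the transgene wrdSi55, with the plant F-box protein TIR1 and mTagBFP2 under the *eft-3* promoter, and the allele kry61, which puts an auxin-inducible degron and a FLAG tag on *nhr-23*. *nhr-23* encodes the nuclear receptor homologous to mammalian ROR. Mock worms and worms given K-NAA, an auxin analog that leads to breakdown of degron-tagged protein, were sampled in parallel, with a K-NAA dose of 0.4 mM and 12 h of exposure before sampling in the labels. Both groups carried both alleles, had been entrained by temperature cycles, were kept from producing offspring with FUdR from the L4 stage, and were sampled in constant conditions at 12 circadian times (CT), every 2 h from CT1 to CT23, which is 97 to 119 h after release of L1 larvae. From each condition 2 separate culture plates, labelled replicate 1 and 2, were taken at a time point, which makes 24 libraries per condition. The Methods give another dose and a transfer to K-NAA at a fixed age, under which exposure lengthened with CT, so that time of day, age and length of exposure cannot be told apart in K-NAA. The *eft-3* promoter is active widely in the soma, so loss of the tagged protein was not aimed at the intestine. K-NAA-treated worms that lack the degron were not analysed here, and an effect of the compound and an effect of losing NHR-23 cannot be told apart.

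Values were TPM, a transcript abundance that is scaled for transcript length, sums to the same total in every library and keeps no depth, so the spread between plates was the only measure of precision. In each library 15165 to 16095 genes were above 0, the 2 plates of a time point correlated at 0.979 to 0.989, and no libraries were identical. *nhr-23* mRNA was 0.10 lower in K-NAA on the log2 scale (adjusted p = 0.0226 from limma), a difference of -0.20 in replicate 2 and of -0.00051 in replicate 1. In whole worms, fewer cells of a type and less RNA per cell cannot be told apart.

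The vitellogenins were among the most abundant transcripts of these adults. Their summed level was 13735 ± 1711 TPM in mock (SD, n = 24 libraries), or 1.37% of all TPM, and 17204 ± 1117 TPM for K-NAA (SD, n = 24), or 1.72%. *vit-2* and *vit-6* led, with 35.9% and 35.5% of the vitellogenin TPM in mock. *vit-2* ranked between 6th and 40th and *vit-6* between 7th and 46th among all genes over the 48 libraries. *vit-2* was at 4920 ± 537 TPM and *vit-6* at 4872 ± 625 TPM in mock (SD, n = 24 each), a pair that did not differ beyond its spread, with a ratio of *vit-2* to *vit-6* of 1.01 ± 0.043 (SD, n = 24).

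*vit-5* followed at 2087 ± 300 TPM in mock (SD, n = 24), below every *vit-2* and *vit-6* library. *vit-4* was at 923 ± 169 TPM and *vit-3* at 729 ± 168 TPM (SD, n = 24 each). Their ranges over libraries overlapped, but within each of the 48 libraries *vit-3* was lower than *vit-4*, with a mean ratio of 0.78 ± 0.045 in mock (SD, n = 24). *rme-2* came next at 413 ± 23.9 TPM. *vit-1* was the lowest of its family at 204 ± 68.6 TPM, and in mock its highest library (357 TPM) lay under the lowest of *rme-2* (359.7 TPM), while in K-NAA the ranges of these genes overlapped. The regulators were far lower, with *pqm-1* at 18.8 ± 2.88 TPM and *unc-62* at 17.8 ± 1.2 TPM, which overlapped, and *ceh-60* at 3.65 ± 0.758 TPM (SD, n = 24 each). The rank order of the vitellogenins by mean was the same in K-NAA, where the means were 6128, 6012, 2689, 1204, 950 and 222 TPM for *vit-2*, *vit-6*, *vit-5*, *vit-4*, *vit-3* and *vit-1*.

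In the Ensembl annotation of WBcel235, *vit-1* to *vit-5* lie on the X chromosome and *vit-6* on chromosome IV, and all 10 members are protein-coding genes. *vit-3* (X, 3567355 to 3572549, minus strand) and *vit-4* (X, 3558769 to 3563965, minus strand) are neighbours with 3389 bp between them, and *vit-5* (X, 3403471 to 3408603, plus strand) lies 150165 bp from *vit-4*. *vit-2* occupies X, 5101042 to 5106169, *vit-1* occupies X, 7727889 to 7733168, and *vit-6* occupies IV, 8261157 to 8266459, each on the plus strand. *rme-2* is at IV, 5470026 to 5473174 (plus strand), *ceh-60* at X, 6522596 to 6530146 (minus), *unc-62* at V, 4497461 to 4511449 (plus) and *pqm-1* at II, 11150391 to 11152595 (minus). *vit-3*, *vit-4* and *vit-5* are close copies, so the split of shared reads among them is uncertain, and their sum is also given. *vit-2* overlaps *C42D8.9* and *ceh-60* overlaps *ets-4* on the other strand; the libraries were strand-specific.

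**Figure D1:**
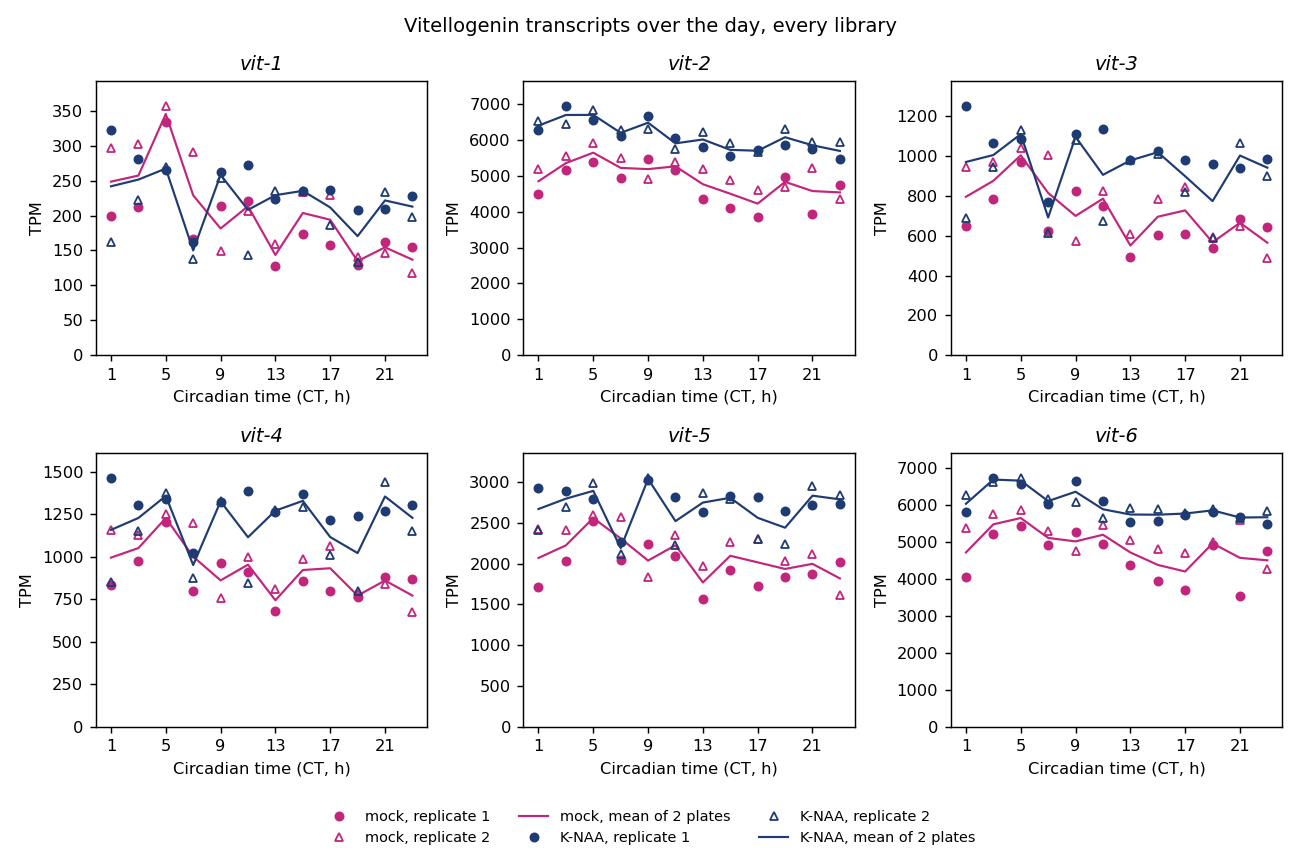
TPM of each vitellogenin (y axis, from 0) against circadian time in h (x axis) for every library. Filled circles are plates of replicate 1, open triangles plates of replicate 2, and lines the mean of the 2 plates of mock (magenta) and K-NAA (navy). The K-NAA plates of *vit-2* and *vit-6* lie above the mock plates at all 12 time points, while those of *vit-1* mix with mock.

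The first question was whether K-NAA changed the level of the yolk genes. It was higher for 5 of the 6 vitellogenins, by 1.24 to 1.31 times, and lower for *rme-2* and *pqm-1*, by about 0.90 times each. With the time point as a factor, 7 of the 10 members passed an adjusted p of 0.05 (limma, Benjamini-Hochberg over 13813 genes), where 29.3% of all genes tested passed, and 7 had an unadjusted p under 0.05, where 38.7% did. The 5 higher members stand beside 9.48% of all genes that were higher, and the 2 lower ones beside 19.8% that were lower. The median log2 difference was 0.35 over the vitellogenins and -0.020 over all genes tested. Log2 values refer to TPM + 0.5 throughout.

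*vit-2* had 3858, 4970 and 5925 TPM as the lowest, median and highest mock library and 5464, 6095 and 6959 TPM in K-NAA. Although the full ranges overlapped, 15 of the 24 K-NAA libraries were above every mock library, and both K-NAA plates exceeded both mock plates at all 12 time points. The log2 difference was 0.32 (standard error 0.029, adjusted p = 1.71e-11 from limma), or 1.25 times.

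*vit-6*, whose product is cleaved into a pair of smaller yolk proteins, ran in step with *vit-2*. Its lowest, median and highest libraries were 3543, 4930 and 5869 TPM for mock and 5492, 5902 and 6739 TPM in K-NAA. Again both K-NAA plates were above both mock plates at each of the 12 time points, a separation that 23 of the 13813 genes tested (0.167%) showed, *vit-2* and *vit-6* among them. The log2 difference was 0.31 (standard error 0.036, adjusted p = 1.07e-08), or 1.24 times.

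*vit-5* ranged from 1570 to 2596 TPM for mock (median 2036) and between 2116 and 3053 TPM for K-NAA (median 2791), with 18 of the 24 K-NAA libraries above every mock library. It was 1.29 times higher (log2 0.37, standard error 0.051, adjusted p = 3.6e-07). *vit-4* ranged from 673 to 1252 TPM for mock and between 800.3 and 1464 TPM for K-NAA and was 1.30 times higher (log2 0.38, standard error 0.069, adjusted p = 3.7e-05). *vit-3* ranged from 486 to 1039 TPM for mock and between 588 and 1253 TPM for K-NAA and was 1.31 times higher (log2 0.39, standard error 0.080, adjusted p = 0.000197). Each of these genes had the higher mean under K-NAA at 11 time points out of 12. The exception was CT7, where the K-NAA mean of each was the lower one. Their sum, *vit-3 + vit-4 + vit-5*, differed by 0.38 (adjusted p = 4.04e-06 from limma).

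*vit-1* did not pass. Its libraries ran from 118 to 357 TPM for mock (median 187) and between 134 and 323 TPM for K-NAA (median 231), and the groups overlapped almost wholly. The log2 difference was 0.16, with a 95% interval of -0.028 to 0.34 (adjusted p = 0.222 from limma), and the mean was higher under K-NAA at 7 time points out of 12.

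**Figure D2:**
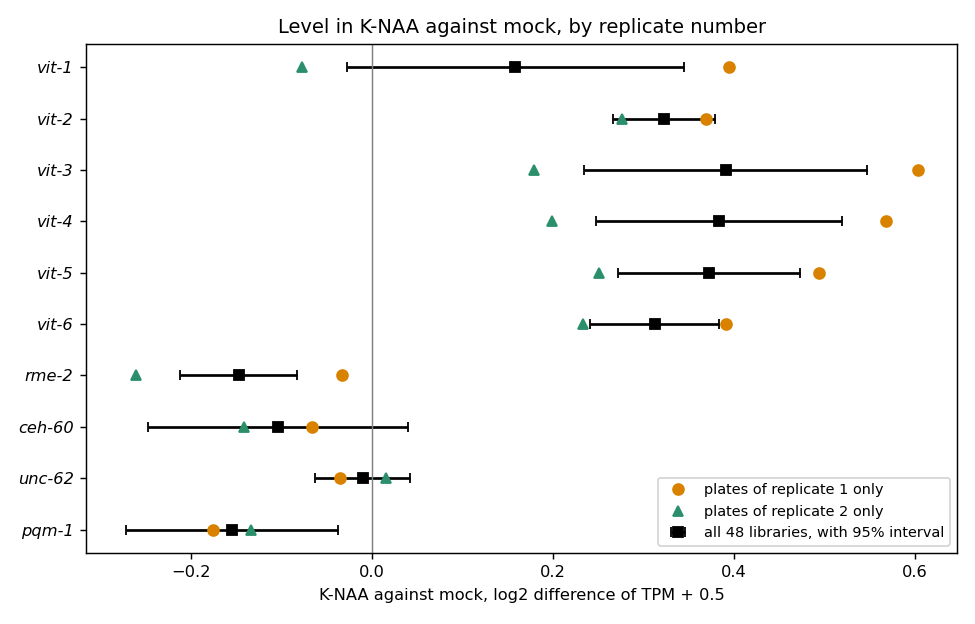
Log2 difference of K-NAA against mock (x axis, on TPM + 0.5) for each member (y axis). Black squares with bars are the estimate from all 48 libraries with its 95% interval, orange circles the estimate from plates of replicate 1 only, and green triangles from plates of replicate 2 only. *vit-2*, *vit-5* and *vit-6* stay above 0.23 in both, while *vit-1* changes side and *rme-2* is close to 0 in replicate 1.

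The estimates of these differences were not the same in the plates of replicate 1 and of replicate 2. In the plates of replicate 1 the log2 differences were 0.39, 0.60 and 0.57 for *vit-1*, *vit-3* and *vit-4*, and all 3 passed (adjusted p = 0.00512, 3.23e-05 and 6.36e-06 from limma). In the plates of replicate 2 they were -0.078, 0.18 and 0.20, and none passed (adjusted p = 0.769, 0.368 and 0.243). *vit-2*, *vit-5* and *vit-6* passed in either set, with differences of 0.37, 0.49 and 0.39 in replicate 1 and 0.28, 0.25 and 0.23 in replicate 2. In replicate 2 alone, 4 of the 10 members passed, and in replicate 1 alone 6. The share of all genes that passed in these smaller fits was not counted, so these counts have no background beside them. Whether the replicates differed in the effect of K-NAA was not tested.

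*rme-2*, the receptor on the side of the oocyte, moved the other way. Its lowest, median and highest libraries were 359.7, 409 and 471 TPM for mock and 311, 372 and 443 TPM in K-NAA, and 8 K-NAA libraries were below every mock library. The mean was lower in K-NAA at all 12 time points, as for 6.43% of the genes tested. Both K-NAA plates were below both mock plates at 7 of these time points, and 9.82% of the genes tested had this at 7 or more. The log2 difference was -0.15 (standard error 0.033, adjusted p = 0.000603 from limma), or 0.90 times. Plates of replicate 2 carried most of it, at 419 ± 22.9 TPM for mock and 349.5 ± 24.5 TPM for K-NAA (SD, n = 12 plates each). Those of replicate 1 stood at 407 ± 24.3 and 397 ± 27 TPM (SD, n = 12 each), and *rme-2* did not pass without replicate 2 (log2 -0.034, adjusted p = 0.468 from limma).

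The ratio of the summed vitellogenins to *rme-2* was 33.4 ± 4.97 in mock and 46.5 ± 5.16 in K-NAA (SD, n = 24 libraries each). That of *vit-2* alone to *rme-2* was 12.0 ± 1.65 and 16.6 ± 2.11 (SD, n = 24 each). These ratios join the differences described above and were given no test.

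**Figure D3:**
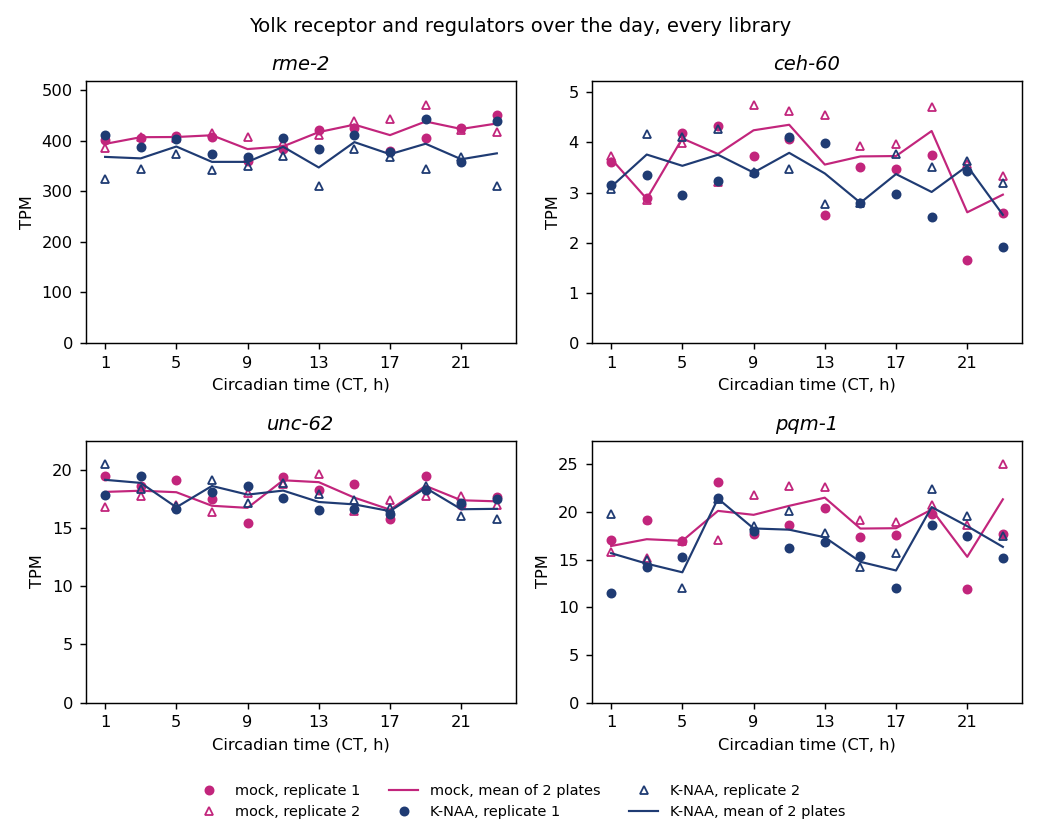
TPM of *rme-2*, *ceh-60*, *unc-62* and *pqm-1* (y axes, from 0) against circadian time in h (x axis) for every library, with symbols and colors for plates and conditions as in the plot of the vitellogenins. Most K-NAA plates of replicate 2 lie under the mock plates of *rme-2*, and the plates of the regulators mix.

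Among the regulators, *pqm-1* was 18.8 ± 2.88 TPM for mock, between 11.9 and 25 TPM, and 16.9 ± 3.01 TPM in K-NAA, between 11.5 and 22.4 TPM (SD, n = 24 each). The groups overlapped in nearly all libraries. Its log2 difference of -0.16 passed narrowly (adjusted p = 0.0455 from limma) but missed the threshold under 43 of 73 alternatives, among them those without replicate 1 (-0.13, adjusted p = 0.225) and without replicate 2 (-0.18, adjusted p = 0.117).

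*ceh-60* was 3.65 ± 0.758 TPM for mock and 3.33 ± 0.572 TPM for K-NAA (SD, n = 24 each), and its log2 difference of -0.10 had an interval of -0.25 to 0.040 (adjusted p = 0.311 from limma). *unc-62* had the smallest difference between the conditions of the 10 members, at 17.8 ± 1.2 TPM for mock and 17.7 ± 1.16 TPM for K-NAA (SD, n = 24 each). Its log2 difference was -0.011, with an interval of -0.063 to 0.042 (adjusted p = 0.810). *unc-62* is also transcribed outside the intestine, and the whole-worm value does not separate these tissues.

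The second question was how the yolk genes changed over the day. In mock worms the vitellogenins were highest near CT5 and lower late in the sampled day. *vit-1* showed the steepest course. At CT5 its plates had 334 and 357 TPM, and at CT23 they had 155 and 118 TPM. From CT1 to CT5 its mean was 284 ± 64.3 TPM, and from CT19 to CT23 it was 142 ± 16.5 TPM (SD, n = 6 libraries each). *vit-3* fell from 892 ± 147 to 599 ± 74.8 TPM and *vit-4* from 1090 ± 157 to 800.3 ± 78.1 TPM between the same windows (SD, n = 6 each). *vit-2* went from 5290 ± 475 to 4654 ± 461 TPM (SD, n = 6 each).

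A line fitted over CT fell in mock for *vit-1*, *vit-2*, *vit-3* and *vit-4*, that is 4 of the 10 members, where 8.99% of all genes passed in either direction, 3.42% as lower and 5.57% as higher. At an unadjusted p under 0.05 stood 7 members, beside 23.7% of all genes. The fitted log2 change from CT1 to CT23 was -1.01 for *vit-1* (standard error 0.20, adjusted p = 0.00229 from limma), -0.61 for *vit-3* (0.16, adjusted p = 0.0189), -0.45 for *vit-4* (0.13, adjusted p = 0.0344) and -0.27 for *vit-2* (0.087, adjusted p = 0.0499). *vit-5* (-0.28, adjusted p = 0.141) and *vit-6* (-0.26, adjusted p = 0.145) had negative slopes that did not pass. *rme-2* had a positive slope of 0.13 that did not pass (adjusted p = 0.108). The count of 4 was 2 without any one of the plates CT1 replicate 2, CT3 replicate 2, CT5 replicate 1, CT5 replicate 2 or CT19 replicate 2, and 1 without CT23 replicate 2. It was 1 without replicate 1 and 0 without replicate 2, where 1 member had an unadjusted p under 0.05.

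A cosine with a period of 24 h, fitted to the same libraries, passed for 5 of the 10 members at an adjusted p under 0.30, the threshold of the study, where 11.7% of all genes passed. All 5 were vitellogenins. *vit-2* had the smallest p, with a log2 peak-to-trough range of 0.30 and its peak at CT6.25 (adjusted p = 0.0713 from limma). The ranges were 0.76 for *vit-1* (peak CT5.60, adjusted p = 0.138), 0.50 for *vit-3* (CT5.42, adjusted p = 0.207), 0.36 for *vit-4* (CT5.13, adjusted p = 0.291) and 0.29 for *vit-6* (CT5.98, adjusted p = 0.236). *vit-5* had a range of 0.26 and a peak at CT6.04 but did not pass (adjusted p = 0.385). At an adjusted p under 0.05, 0 members passed, where 1.12% of all genes did, while 5 had an unadjusted p under 0.05, where 14.3% did.

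Only 1 day was sampled, and over 1 day a line and a cosine take up part of the same change. With a linear drift in the model, 0 members passed the cosine test in mock and 0 had an unadjusted p under 0.05, although the fitted range of *vit-2* was 0.29 in that model. With the 24 h terms in the model, 0 members passed the test of the line, and 1 had an unadjusted p under 0.05. A fall over the day and a daily rhythm therefore cannot be told apart for these genes. The count of 5 was 2 without either plate of CT5 and 3 without either plate of CT3 or the replicate 1 plate of CT9, CT15 or CT21, and 0 with 1 replicate number alone.

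*rme-2* (range 0.12, peak CT19.5, adjusted p = 0.370), *ceh-60* (0.36, CT10.7, adjusted p = 0.436), *pqm-1* (0.23, CT12.2, adjusted p = 0.577) and *unc-62* (0.019, adjusted p = 0.991) did not pass the cosine test in mock.

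**Figure D4:**
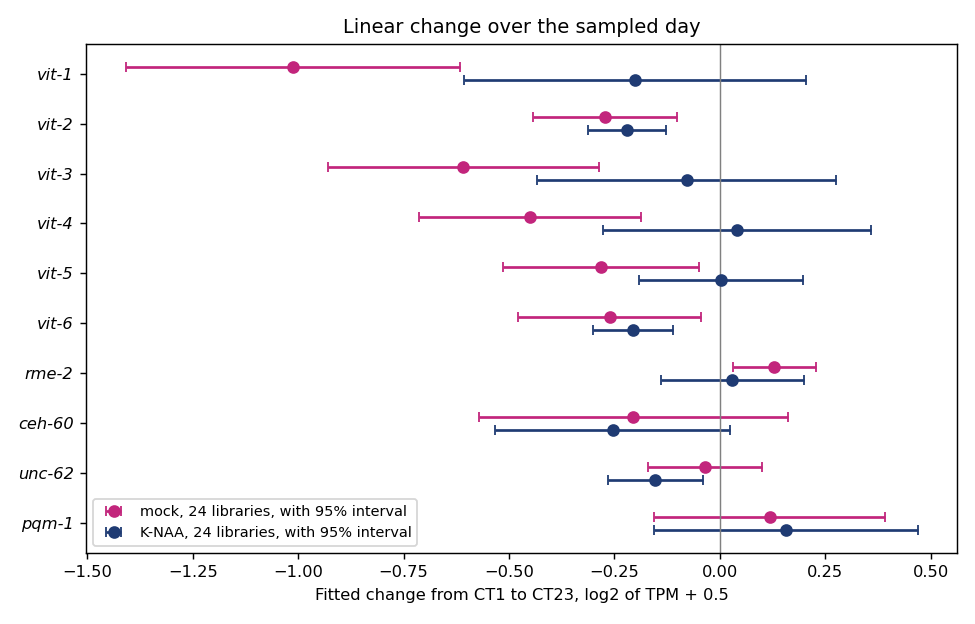
Fitted linear change from CT1 to CT23 (x axis, log2 of TPM + 0.5) for each member (y axis) in mock (magenta) and K-NAA (navy). Points are estimates from 24 libraries per condition and bars their 95% intervals. In mock the 6 vitellogenins lie below 0, from -0.26 to -1.01, and in K-NAA *vit-2* and *vit-6* lie at -0.22 and -0.21.

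In K-NAA worms the fall over the day passed for *vit-2* and *vit-6* and for no other member, where 1.89% of all genes passed in either direction, 0.905% as lower and 0.985% as higher. At an unadjusted p under 0.05 stood 3 members, beside 13.9% of all genes. *vit-2* went from 6608 ± 252 TPM at CT1 to CT5 to 5882 ± 276 TPM at CT19 to CT23, and *vit-6* from 6458 ± 367 to 5726 ± 151 TPM (SD, n = 6 libraries each). Their fitted log2 changes were -0.22 (standard error 0.047, adjusted p = 0.0148 from limma) and -0.21 (0.048, adjusted p = 0.0255). *vit-1*, *vit-3*, *vit-4* and *vit-5* had changes of -0.20, -0.078, 0.040 and 0.0028, none past the threshold. The count of 2 was 1 without either CT3 plate or the CT23 plate of replicate 1, and 0 with 1 replicate number alone.

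The cosine passed in K-NAA for the same 2 genes at an adjusted p under 0.30, where 0.746% of all genes passed. At an unadjusted p under 0.05 stood 2 members, beside 7.28% of all genes, and at an adjusted p under 0.05 neither any member nor any other gene. The range was 0.19 for each, with peaks at CT5.03 for *vit-2* (adjusted p = 0.239 from limma) and CT5.37 for *vit-6* (adjusted p = 0.211). The count was 0 without either plate of CT3 or CT5 or the replicate 1 plate of CT13 or CT15, and 1 without the replicate 1 plate of CT1, CT19 or CT21 or either plate of CT17. With a linear drift in the model, 0 members passed.

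The difference in rhythm between K-NAA and mock, tested over all 48 libraries, passed for 0 of the 10 members at an adjusted p under 0.05, and 0 had an unadjusted p under 0.05. Of all genes tested 0.00724% passed, and 4.83% had an unadjusted p under 0.05. The widest difference was that of *vit-1*, with a range of 0.63 (unadjusted p = 0.105, F test from limma). That of *vit-2* was 0.13 (unadjusted p = 0.291), and each had an adjusted p of 0.9999. A range cannot fall below 0, so no interval is given for it. The difference in linear change, a test added after the slopes had been seen, passed for 0 members, where 0.159% of all genes passed. At an unadjusted p under 0.05, where 9.3% of all genes stood, were *vit-1* (0.81 for K-NAA minus mock, adjusted p = 0.309 from limma), *vit-4* (0.49, adjusted p = 0.452) and *vit-3* (0.53, adjusted p = 0.495). That the fall of these genes passed in mock and not in K-NAA is therefore no shown difference.

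The vitellogenins fell into a pair and a set of 4 by how they varied from library to library. *vit-2* and *vit-6* had a Pearson's r of 0.96 over the 24 mock libraries and 0.91 over the 24 K-NAA libraries, although they lie on different chromosomes. *vit-1*, *vit-3*, *vit-4* and *vit-5* correlated among themselves at 0.86 to 0.99 in mock and at 0.90 to 0.98 in K-NAA. Between the pair and the set, r was 0.53 to 0.75 in mock and 0.0021 to 0.23 in K-NAA. The 24 points of a condition share its time points and the TPM total, and *vit-3*, *vit-4* and *vit-5* may share reads, so these values are a description. *vit-1* ran with *vit-3* (0.96 in mock, 0.98 in K-NAA) closer than with *vit-2* (0.61 and 0.21).

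**Figure D5:**
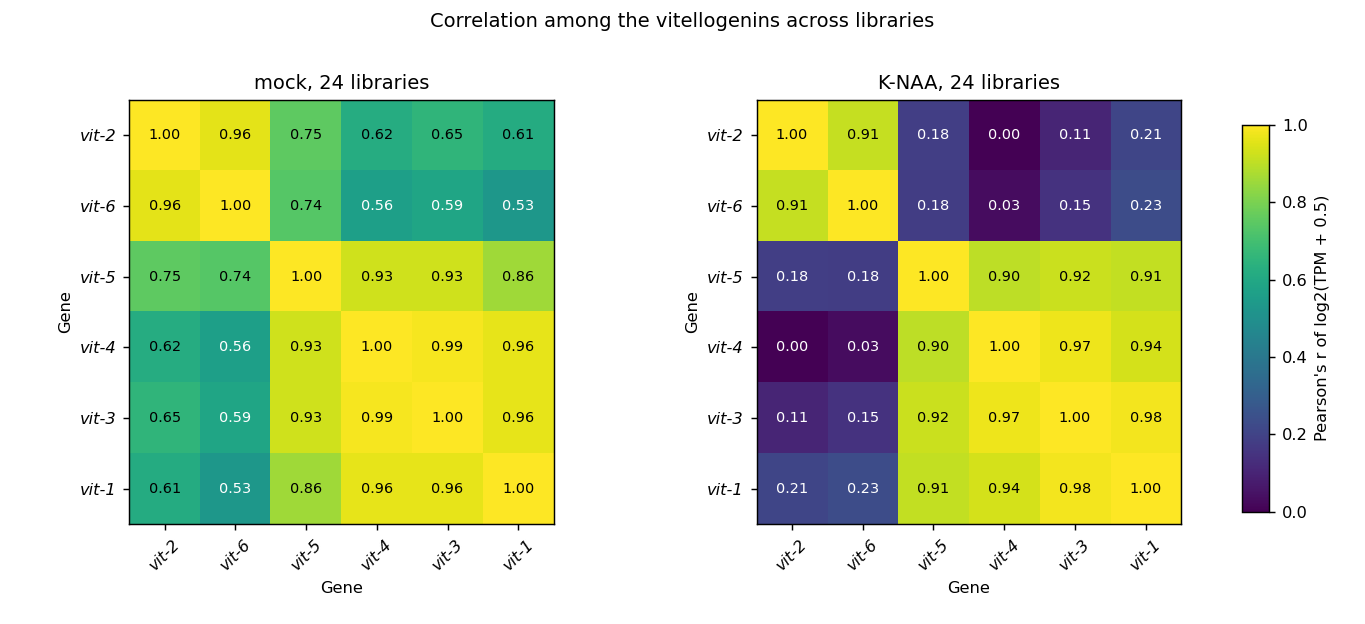
Pearson's r of log2(TPM + 0.5) between each pair of vitellogenins (both axes) over the 24 mock libraries (left) and the 24 K-NAA libraries (right), with the color scale from 0 to 1 and r printed in each cell. The pair *vit-2* and *vit-6* stands at 0.96 and 0.91, and cells between this pair and the other 4 genes are at or below 0.23 in K-NAA.

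Single plates show the split. At CT7 the K-NAA plates of replicate 1 and 2 had 162 and 138 TPM of *vit-1*, 770 and 614 TPM of *vit-3* and 2263 and 2116 TPM of *vit-5*, each near or at the bottom of its K-NAA range. At the same plates *vit-2* had 6123 and 6291 TPM, close to its K-NAA mean. At CT1 the K-NAA plates of *vit-1* had 323 TPM in replicate 1 and 162 TPM in replicate 2, and those of *vit-4* had 1464 and 850 TPM, while *vit-2* had 6279 and 6537 TPM. The reverse was seen in mock at CT21, where the plates of replicate 1 and 2 had 3543 and 5592 TPM of *vit-6* and 3933 and 5229 TPM of *vit-2*, but 163 and 146 TPM of *vit-1* and 683 and 648 TPM of *vit-3*. These plates were picked after their values were seen.

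Among the 11209 genes that averaged 1 TPM or more, *vit-6* was the gene with the highest r with *vit-2* in mock. The next 5 were *clec-84*, a C-type lectin gene (0.83 in mock, 0.44 in K-NAA), *irg-7*, an infection response gene (0.82, -0.093), *sdz-5* (0.82, 0.15), *ric-4*, the SNAP-25 homolog (0.81, 0.37), and *K09A9.6* (0.81, 0.56). Of these, *clec-84* (log2 0.42, adjusted p = 1.67e-08), *irg-7* (0.25, adjusted p = 5.24e-05) and *sdz-5* (0.49, adjusted p = 0.000828, all from limma) were higher in K-NAA, beside 9.48% of all genes. *vit-5* ranked 26th, and *vit-1*, *vit-3* and *vit-4* ranked between 212th and 359th.

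The 5 genes most like *rme-2* in mock were *snx-14*, a sorting nexin gene (0.84 in mock, 0.92 in K-NAA), *perm-1*, an eggshell permeability barrier gene (0.83, 0.81), *sams-3* and *sams-4*, S-adenosylmethionine synthetase genes (0.83 in mock each, 0.83 and 0.72 in K-NAA), and *ran-3* (0.82, 0.79), and each of them held its r in K-NAA above 0.7. All 5 were lower in K-NAA, beside 19.8% of all genes, by 0.18 (*ran-3*) to 0.36 (*sams-3*) on the log2 scale (adjusted p from 2.11e-07 to 2.98e-05 from limma). Without replicate 2 their differences lay between -0.22 (*sams-3*) and -0.10 (*sams-4*), and *snx-14* did not pass (-0.12, adjusted p = 0.0678 from limma). *sams-3* and *sams-4* are close copies, and reads may be shared between them. The vitellogenins had r values between -0.27 and -0.078 with *rme-2* in mock. In K-NAA, r with *rme-2* was 0.40 for *vit-1*, 0.43 for *vit-3*, 0.45 for *vit-4* and 0.18 for *vit-5*, but -0.30 for *vit-2* and -0.20 for *vit-6*. These values pool both replicate numbers. In K-NAA, replicate 1 had higher means than replicate 2 for *rme-2* (397 and 349.5 TPM), *vit-1* (242 and 201), *vit-3* (1025 and 875) and *vit-4* (1292 and 1115). Within a replicate number, r was computed only for the summed vitellogenins with *rme-2*, at -0.17 in replicate 1 and -0.015 in replicate 2.

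Across libraries, the summed vitellogenins were set against *rme-2* and the regulators, 4 genes in 2 conditions and 8 relations in all, none of which passed. The strongest was that with *pqm-1* in K-NAA, with a Pearson's r of -0.47 (permutation p = 0.0201, adjusted p = 0.161) and a Spearman's rho of -0.45 (permutation p = 0.0268, adjusted p = 0.214) over 24 libraries. It was -0.33 without the 2 libraries farthest from the median of the vitellogenins, and -0.25 and -0.64 within replicate 1 and 2. In mock the relation with *pqm-1* was -0.070 (permutation p = 0.747, adjusted p = 0.934, rho -0.28, permutation p = 0.180), but 0.32 within replicate 1, -0.79 within replicate 2 and -0.47 without the 2 farthest libraries (permutation p = 0.0259), so it did not hold across the replicates. Within replicate 2 alone it passed (adjusted p = 0.0193, permutation test). With *ceh-60*, r was 0.35 in mock (permutation p = 0.0890, adjusted p = 0.356, rho 0.25, permutation p = 0.237), 0.51 within replicate 1 and -0.27 within replicate 2, and 0.16 without the 2 farthest libraries. The other 5 relations had r between -0.19 and 0.16, with adjusted p of 0.925 or above by the permutation test, and r between -0.33 and 0.047 without the 2 farthest libraries. Their rho lay between -0.25 and 0.02, with adjusted p of 0.475 or above by the permutation test.

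Of 10 other genes known to act on vitellogenin expression, 3 were lower in K-NAA, where 19.8% of all genes were, 0 were higher and 7 did not pass (median log2 difference -0.025, against -0.020 for all genes). They were *daf-16*, the FOXO factor (76.3 ± 7.48 TPM for mock, 69.9 ± 4.33 TPM in K-NAA, SD, n = 24 each, log2 -0.12, adjusted p = 0.00326 from limma), *dbl-1*, a BMP-like ligand (-0.22, adjusted p = 0.00379), and *daf-2*, the insulin receptor (-0.17, adjusted p = 0.0173). Without replicate 2 none of the 3 passed (-0.054, -0.17 and -0.011). In mock, *sgk-1*, a kinase downstream of TORC2, passed the cosine test with a range of 0.32 and a peak at CT7.06 (adjusted p = 0.0934 from limma), and fell by 0.30 over the day (adjusted p = 0.0459), the 1 gene of the list to pass each. Of all genes, 11.7% passed that cosine test and 3.42% fell. The fall of *sgk-1* did not pass in 32 of 49 alternatives. Its cosine did not pass with either replicate number alone or at a period of 20 h. Nor did it pass with a linear drift (adjusted p = 0.804 from limma) or time points as a factor.

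Of 3 genes of yolk and lipoprotein assembly, export and breakdown, 2 were lower in K-NAA, 0 were higher and 1 did not pass, where 19.8% of all genes were lower. *dsc-4*, the homolog of the large subunit of the microsomal triglyceride transfer protein, which loads lipid onto lipoproteins, was 8.41, 13.1 and 15.8 TPM in its lowest, median and highest mock library and 6.80, 7.88 and 9.28 TPM in K-NAA. Of the 24 K-NAA libraries 21 were below every mock library, and both K-NAA plates were below both mock plates at 11 of the 12 time points. The log2 difference was -0.68 (standard error 0.043, adjusted p = 3.43e-16 from limma), or 0.62 times, and it lay between -0.73 and -0.63 in all 73 alternatives. *sft-4*, the homolog of the cargo receptor SURF4, which acts in export of yolk from the endoplasmic reticulum, fell to 68.0 ± 7.63 TPM from 78.5 ± 6.4 TPM (SD, n = 24 each, log2 -0.21, adjusted p = 8.09e-06). *cpl-1*, a cathepsin L gene needed for yolk processing, did not pass (log2 0.026).  In mock, *sft-4* rose by 0.28 over the day (adjusted p = 0.00182 from limma) and *dsc-4* fell by 0.31 (adjusted p = 0.0432), and *sft-4* passed the cosine test, with a range of 0.24 and a peak at CT18.5 (adjusted p = 0.0336). The fall of *dsc-4* did not pass in 24 of 49 alternatives. The cosine of *sft-4* did not pass with either replicate number alone or at a period of 20 h. Nor did it pass with a linear drift (range 0.13, adjusted p = 0.894 from limma) or time points as a factor. Of all genes, 11.7% passed that cosine test, 5.57% rose and 3.42% fell.

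Of 10 genes of receptor-mediated endocytosis, 3 were lower in K-NAA, a share near the 19.8% of all genes, 0 higher and 7 did not pass (median log2 difference -0.073). *rab-7*, a late endosomal GTPase gene, went from 159 ± 11.1 to 142 ± 7.47 TPM (SD, n = 24 each, log2 -0.16, adjusted p = 5.57e-06 from limma). *dyn-1*, the dynamin gene (-0.15, adjusted p = 0.00280), and *rab-35*, a GTPase gene of receptor recycling (-0.087, adjusted p = 0.00843), were also lower, but *dyn-1* did not pass without replicate 2 (-0.073) and *rab-35* did not pass without either replicate number or after median ratio rescaling (-0.052). In mock, *rab-7* rose by 0.20 over the day (adjusted p = 0.0152), and *rab-7* and *dyn-1* passed the cosine test at 0.30, with peaks at CT18.9 each (adjusted p = 0.251 and 0.274, all from limma). The cosine of *rab-7* did not pass in 26 of 52 alternatives and that of *dyn-1* in 30 of 52, among them either replicate number alone, median ratio rescaling, quantile normalization and the drift. The rise of *rab-7* did not pass in 6 of 49 alternatives. The 2 of 10 that passed the cosine test and the 1 that rose stand beside 11.7% and 5.57% of all genes.

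Markers of the tissues that make and take up yolk were read beside these results. Of 12 intestinal markers, 3 were higher in K-NAA, beside 9.48% of all genes, and 1 was lower, beside 19.8%. The other 8 did not pass, and the median log2 difference of the 12 markers was 0.015. Their summed level was 1145 to 1582 TPM for mock and 1196 to 2014 TPM in K-NAA. Most of that came from *asp-1*, an aspartic protease gene, at 534 ± 49.4 TPM for mock and 747 ± 196 TPM for K-NAA (SD, n = 24 each, log2 0.44, adjusted p = 1.03e-05 from limma), and from *acdh-1*, an acyl-CoA dehydrogenase gene (0.24, adjusted p = 0.0285), whose difference was -0.0063 without replicate 1. *vha-6*, a vacuolar proton pump gene, was also higher (0.091, adjusted p = 0.0189) and *pgp-1*, a P-glycoprotein gene, lower (-0.31, adjusted p = 0.00109). *vha-6* did not pass without replicate 1 (0.040, adjusted p = 0.573 from limma), nor *pgp-1* without replicate 2 (-0.13, adjusted p = 0.358). The 8 markers that did not pass had differences between -0.088 (*elt-7*) and 0.080 (*pept-1*).

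Over the day, *act-5* and *ifb-2*, genes of the intestinal brush border and its filaments, fell in mock by 0.57 and 0.58 on the log2 scale (adjusted p = 1.91e-06 and 0.000659 from limma), and in K-NAA by 0.39 and 0.37 (adjusted p = 3.82e-05 and 0.0224). Their fitted cosines peaked at CT5.51 and CT6.75 in mock, near the peaks of the vitellogenins. A cosine fitted to a steady fall also peaks in the first part of the day, so this is no shown shared phase. With a linear drift in the model, neither gene passed the cosine test (ranges 0.067 and 0.16, adjusted p = 0.966 and 0.949 from limma). *ges-1*, the gut esterase gene, rose by 0.44 in mock (adjusted p = 0.0328), a call that was lost in 15 of 49 alternatives. So 2 of the 12 intestinal markers fell and 1 rose in mock, beside 3.42% and 5.57% of all genes. In K-NAA, 3 of the 12 fell and 0 rose, beside 0.905% and 0.985% of all genes. They were *act-5*, *ifb-2* and *vha-6* (log2 -0.37, adjusted p = 0.00344 from limma). In mock the cosine test at 0.30 passed for 4 of the 12, beside 11.7% of all genes. They were *act-5*, *ifb-2*, *aqp-4* (peak CT9.86, adjusted p = 0.0655) and *vha-6* (CT7.06, adjusted p = 0.179, both from limma). Neither *aqp-4* nor *vha-6* passed with a linear drift (adjusted p = 0.529 and 0.817 from limma). In K-NAA it passed for 3 of the 12, *pgp-1*, *act-5* and *vha-6* (adjusted p = 0.0846, 0.177 and 0.245 from limma), beside 0.746% of all genes. Of 6 body wall muscle markers 4 fell in mock and 0 rose, by 0.52 (*tnt-2*), 0.47 (*unc-54*), 0.37 (*mup-2*) and 0.42 (*unc-15*) on the log2 scale (adjusted p from 0.000349 to 0.0126 from limma), beside 3.42% of all genes that fell. Of 3 tested hypodermis markers, the collagen gene *col-19* fell by 0.60 (adjusted p = 7.87e-06), while *sqt-3* (0.83) and *dpy-7* (0.55) had positive slopes that did not pass (adjusted p = 0.157 and 0.273, all from limma). In K-NAA, *tnt-2* fell by 0.39 (adjusted p = 0.0131) and *col-19* by 0.55 (adjusted p = 0.00374, both from limma), 1 marker of each list. The part of such a shared course in the fall of the vitellogenins was not tested.

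Of 12 oocyte and eggshell markers, 6 were lower in K-NAA, beside 19.8% of all genes, 0 higher and 6 did not pass. Their median log2 difference was -0.057, and their summed level was 8282 to 9853 TPM for mock and 8293 to 9232 TPM in K-NAA. The 4 with the smallest p were *cbd-1* (log2 -0.25, adjusted p = 1.59e-05), *egg-3* (-0.11, adjusted p = 2.8e-05), *puf-5* (-0.11, adjusted p = 0.000779) and *mex-3* (-0.13, adjusted p = 0.00288, all from limma). *cbd-1*, *egg-3* and *mex-3* did not pass without replicate 2 (-0.071, -0.049 and -0.060), as *rme-2* did not. Germline markers had 1 higher and 1 lower of 6, beside 9.48% and 19.8% of all genes. They summed to 944 to 1211 TPM for mock and 1007 to 1188 TPM in K-NAA. The part of oocyte number in the level of *rme-2* was not tested.

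Sperm markers summed to 2.20 to 61.8 TPM for mock and 1.76 to 51.4 TPM in K-NAA, with 0 of 6 tested past the threshold, and embryo markers to 2.96 to 5.38 and 2.20 to 6.21 TPM, with 1 of 5 lower and *med-2* below the filter. Of the other lists, 1 of 6 neuron markers was lower (*snb-1*), beside 19.8% of all genes. Higher were 1 of 3 tested hypodermis markers (*col-19*) and 1 of 6 body wall muscle markers (*myo-3*), beside 9.48% of all genes. Their part in the levels of the yolk genes was not tested.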

How the data were processed

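The deposited tables hold TPM, a transcript abundance scaled for length and library size, per gene and library, which the authors made with Salmon from strand-specific polyA libraries against WormBase mRNA sequences. The submitters' processing notes list ce10. The step from transcripts to genes is not described in the sources read. Columns of the authors' own rhythm tests (p-values, q-values, period, lag and amplitude) were not used. Samples were grouped by the condition, time and replicate in their titles.

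Of the genes, 13813 averaged 0.25 TPM or more across the 48 libraries and were tested with limma 3.58.1 (R 4.3.3). Values entered as log2(TPM + 0.5), a scale that understates changes of genes with low TPM, with a prior variance that follows the mean and Benjamini-Hochberg adjustment. The study's rhythm program was not run, and a cosine of 24 h stood in for it. Correlations used 100000 permutations in Python 3.11.15 with scipy 1.17.1. Intervals are 95% intervals of the fits. All tests were two-sided or F tests.

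The members and lists were chosen with earlier results of these data known. All 10 members are named, with up to 4 genes by p that passed per list and comparison and the 5 genes most like *vit-2* and *rme-2* beyond the family. Markers given as not past a threshold and single plates were named after their values were seen. The fits of the mock rhythm, the difference in rhythm, the level and the mock line were also tested on simulated data. Those data took the real genes' means and spread between plates, with noise independent between libraries. The fits of K-NAA alone, the difference in linear change and the correlations were not simulated. Plates were separate cultures. Positions come from Ensembl's WBcel235 annotation, in which 19523 of the 19885 names were found. Alternatives were pseudocounts of 0.1 and 1, other filters and scalings, a replicate block, periods of 20 and 28 h, a drift, time as a factor, *vit-3*, *vit-4* and *vit-5* summed, and replicates, time points and plates left out. A constant prior variance was added after seeing the data.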

Additional observations from a re-analysis of the deposited data

How the results depend on the processing

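The level differences of *vit-2*, *vit-5*, *vit-6*, *dsc-4* and *sft-4* kept their direction and their call in every alternative run, and *vit-3*, *vit-4* and *rme-2* lost it only without 1 of the replicate numbers. The count of members that differed in level was 4 to 7 with plates, replicates or time points left out. Rhythm calls depended on the processing. In mock the count of 5 was 2 without a filter, 3 after quantile normalization, 0 at a period of 20 h, 0 with a linear drift, 1 with time points as a factor and 0 to 6 with libraries left out. In K-NAA the count of 2 was 1 without a filter, 0 after quantile normalization, 0 at 20 h, 0 with a drift, 0 with time as a factor, 1 with a constant prior variance and 0 to 2 with libraries left out. The count of falling lines in mock (4) was 2 without a filter, 2 with *vit-3*, *vit-4* and *vit-5* summed and 0 beside the 24 h terms, and that in K-NAA (2) was 1 after median ratio rescaling, 0 after quantile normalization and 0 beside the 24 h terms. Leaving out libraries gave 0 to 6 and 0 to 2 for these counts. Causes were not tested. TPM keep no depth, so counting error is unknown.

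Some signs turned, among them that of *acdh-1*, whose level difference had passed. The level of *unc-62* was 0.024 after median ratio rescaling and 0.039 after quantile normalization, and -0.036 to 0.015 with libraries left out. With libraries left out, levels ran from -0.078 to 0.39 for *vit-1*, -0.0063 to 0.48 for *acdh-1* and -0.0081 to 0.060 for *ric-4*. Lines in mock ran from -0.53 to 0.12 for *ceh-60*, -0.096 to 0.028 for *unc-62* and -0.22 to 0.46 for *pqm-1*. Lines in K-NAA ran from -0.21 to 0.059 for *vit-3*, -0.074 to 0.15 for *vit-4*, -0.061 to 0.054 for *vit-5* and -0.027 to 0.098 for *rme-2*. The line of *vit-5* in K-NAA was -0.011 after median ratio rescaling, and that of *rme-2* was -0.019 after quantile normalization and -0.024 beside the 24 h terms. Correlations with the summed vitellogenins, with 1 replicate number left out, ran from -0.27 to 0.51 (*ceh-60*, mock), -0.79 to 0.32 (*pqm-1*, mock), -0.13 to 0.19 (*unc-62*, mock), -0.17 to -0.015 (*rme-2*, K-NAA) and -0.30 to 0.51 (*unc-62*, K-NAA), and that of *rme-2* in K-NAA was -0.093 after median ratio rescaling.

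The replicate numbers showed little pairing between the mock and K-NAA plates of a time point. Deviations of the same-numbered mock and K-NAA plates of a time point correlated at -0.066 to 0.18 (median 0.0017), and 1 of 12 was above 0.1. Whether plates of the same number shared a difference over the time points of a condition was not tested. Means could differ, as for *rme-2* in K-NAA (397 TPM in replicate 1, 349.5 TPM in replicate 2). The main fits held no replicate term. With a replicate block the mock rhythm count was 6 (*vit-5* passed, adjusted p = 0.290 from limma), the level count 7 and the mock line count 4. The block turned the sign of the correlation of *unc-62* in mock (0.065) and of *rme-2* in K-NAA (-0.088).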
